A study of Mus musculus with 16 samples.

Results

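The control prefrontal cortex (PFC) was represented by 4 RNA libraries, which are the only ones described here out of the 16 in the series. They were chosen by the genotype label, and no measured value entered the choice. The study compared mouse lines in which β-catenin, the effector of canonical Wnt signalling, was raised or lowered in forebrain excitatory neurons, and sequenced polyadenylated RNA from the PFC of 4 mice of each of 4 genotypes. The control mice were littermates without Cre, taken from all of the lines and pooled into one group, so they may carry different floxed alleles, and the labels do not say which line each came from. The animals were 2 to 3 months old and of both sexes by the study's methods, and the labels give no sex for a single library. Because only the control group was examined, no comparison between genotypes was made, and the results are levels and the spread among 4 mice.

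The PFC is a cortical region in which glutamatergic projection neurons, arranged in layers, are surrounded by a smaller number of GABAergic interneurons, by astrocytes, oligodendrocytes and microglia, and by vessels. Neighbouring regions of the forebrain, such as the striatum below and the olfactory bulb in front, hold neurons of other types with their own marker genes. Bulk RNA sums all of these, so that fewer cells of a type and less RNA per cell cannot be told apart.

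The deposited values were log2(FPKM + 1), where FPKM is a fragment count divided by transcript length and library size, and levels are given below as FPKM, which is already per length. The table held 23284 genes, of which 4913 were at 0 in all 4 control libraries and 12836 averaged 1 FPKM or more over the libraries. These 12836 are called expressed. Averages of 10 FPKM or more were reached by 7003 genes, of 100 or more by 858, and of 1000 or more by 25. The number of genes listed at 0 in a library ran from 5883 to 6451, and the summed FPKM from 452831 to 469391. Fragment counts were not in the table, so the depth of a library is unknown and no counting interval is given. Pearson's r between pairs of libraries over the expressed genes, on the log2 scale, was 0.979 to 0.985 for all 6 pairs. The libraries nevertheless stood apart in 2 groups of genes that bear on what follows. Striatal markers were highest in replicate 1, and olfactory bulb markers were highest in replicate 3 and next in replicate 4, as described with their values below.

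The most abundant messages of the control PFC came from calmodulin, presynaptic, housekeeping and secreted glial genes. The 100 most abundant genes held 19.8% ± 0.259 (SD, n = 4) of the summed FPKM. The 10 most abundant in each library held 4.68% to 4.96%, and the 1000 most abundant 55.8% to 56.9%. Of the 30 with the highest mean, 25 fell in lists of ribosomal proteins, oxidative phosphorylation, secreted, calcium, synaptic, glycolytic, chaperone, cytoskeletal, ion pump or translation genes. The gene ranked 30 had a mean of 929 FPKM and the next one 905 FPKM.

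Calm2, which encodes calmodulin, the main calcium sensor of neurons, was the most abundant protein-coding gene. It stood at 2344, 2424, 2540 and 2556 FPKM in replicates 1 to 4. Calm3, which encodes the same protein from another chromosome, had a mean of 905 FPKM ± 52.9 (SD, n = 4). Ppia, which encodes the prolyl isomerase cyclophilin A, stood at 2401, 2474, 2456 and 2238 FPKM, and Snap25, a SNARE protein of the presynaptic membrane, at 2220, 2314, 2295 and 2488 FPKM. These neighbours in rank were not separated by the spread between mice. Calm2 was above Ppia in 2 of 4 libraries, and Ppia was above Snap25 in 3 of 4. With 4 libraries the smallest two-sided p of an exact sign-flip test is 0.125, so no order between a pair of genes can pass 0.05.

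Behind calmodulin, neuronal calcium genes made up a deep list. Of the 17 calcium and calmodulin genes listed, all were above 10 FPKM, 8 were among the 100 most abundant, and the median level was 456 FPKM. Nrgn, which encodes the calmodulin-binding postsynaptic protein neurogranin, had a mean of 799 FPKM ± 53.8, and Camk2a, the calcium/calmodulin-dependent kinase subunit of excitatory synapses, a mean of 678 FPKM ± 11.4 (SD, n = 4). Camk2a stood at 693, 668, 669 and 681 FPKM, which is a spread of 0.024 on the log2 scale (SD of log2(FPKM + 1)). Its promoter is the one used in the study to drive Cre in the mutant lines. Pcp4, a calmodulin regulator that marks deep layers, had 672 FPKM ± 14.6. In the same list Ppp1r1b, the dopamine-regulated phosphatase inhibitor DARPP-32, stood at 172, 85.1, 51.2 and 49.5 FPKM, with replicate 1 far above the rest.

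Presynaptic genes were uniformly high. All 22 genes of the synaptic vesicle list were above 100 FPKM, with means from 149 FPKM for Sv2a to 2329 FPKM for Snap25. Atp6v0c, the membrane ring subunit of the proton pump that fills vesicles and acidifies lysosomes, had 1051 FPKM ± 63.1, the vesicle protein synaptophysin (Syp) 809 FPKM ± 42.9, and the calcium sensor Syt1 526 FPKM ± 27.9 (SD, n = 4). None of the 22 was in the variable class, defined as the highest 5% of SDs of log2(FPKM + 1) among expressed genes, which is 642 of 12836 genes. The class held 1.46% of genes averaging 100 to 300 FPKM and 5.37% of those at 300 FPKM or more. A count of 0 in a short list is near these shares, here and below. The lowest SD inside that class was 0.31 and so was the next one outside it. Syn2, which tethers vesicles, had an SD of 0.026 and was in the stable class, the lowest 5% of SDs among genes averaging 10 FPKM or more (350 of 7003 genes).

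Ribosomal protein and oxidative phosphorylation genes took the largest shares of any list, but these were also the longest lists. Both were collected by symbol over all genes. The next longest, the cytoskeletal list, had 30 genes and 2.31% of the summed FPKM. The shares therefore do not rank the functions. The 84 genes with ribosomal protein symbols held 6.54% of the summed FPKM on average and 5.83% to 6.95% by library, and the 94 oxidative phosphorylation genes held 5.48%. Rps29 stood at 1410, 1467, 1705 and 1115 FPKM, and Rplp1 at 1408, 1466, 1628 and 1133 FPKM. Replicate 4 was lowest in both. Among the 81 expressed ribosomal protein genes 59 were lowest in replicate 4, beside 31.4% of all expressed genes. Of the expressed oxidative phosphorylation genes, 49 of 92 were lowest in that replicate. These libraries were singled out after the values were seen. The ATP synthase subunit gene Atp5k stood at 1411, 1327, 1374 and 966 FPKM, whereas Usmg5, another small subunit of the same complex, stood at 1124, 1109, 1205 and 1425 FPKM, with replicate 4 highest. The glycolytic genes Gapdh and Aldoa had 1382 FPKM ± 48.7 and 1279 FPKM ± 22.2. In the variable class were 0 of 19 genes of the glycolysis list, beside 5% of the expressed genes.

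Secreted glial and lipid-carrier genes reached the level of the housekeeping genes. Cst3, the protease inhibitor cystatin C, stood at 2435, 1954, 1751 and 1813 FPKM, with replicate 1 highest. Ptgds, the lipocalin-type prostaglandin D synthase of meninges and oligodendrocytes, stood at 1330, 967, 1339 and 1439 FPKM, with replicate 2 apart below the other three. Apoe, the main lipoprotein of astrocytes, had 1167 FPKM ± 88.2, and Cpe, the carboxypeptidase that matures neuropeptides, 1094 FPKM ± 46.6 (SD, n = 4). Other genes of the 30 were Fth1, the ferritin heavy chain, at 1922 FPKM ± 126, Tmsb4x, the actin monomer binder thymosin β4, at 1697 FPKM ± 48.3, the elongation factor Eef1a1 at 1540 FPKM ± 76.5, the chaperone Hspa8 at 1246 FPKM ± 87.5, the sodium pump subunit Atp1b1 at 975 FPKM ± 42.1, and the actin-severing protein cofilin (Cfl1) at 933 FPKM ± 30.7. Cox8a and Cox6c, subunits of cytochrome oxidase, had 1207 FPKM ± 58.9 and 949 FPKM ± 50.8. Rpl38, Rpl41 and Rps15, all ribosomal, had 1104, 1063 and 948 FPKM, and the selenoprotein Sepw1 had 929 FPKM.

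**Figure D1:**
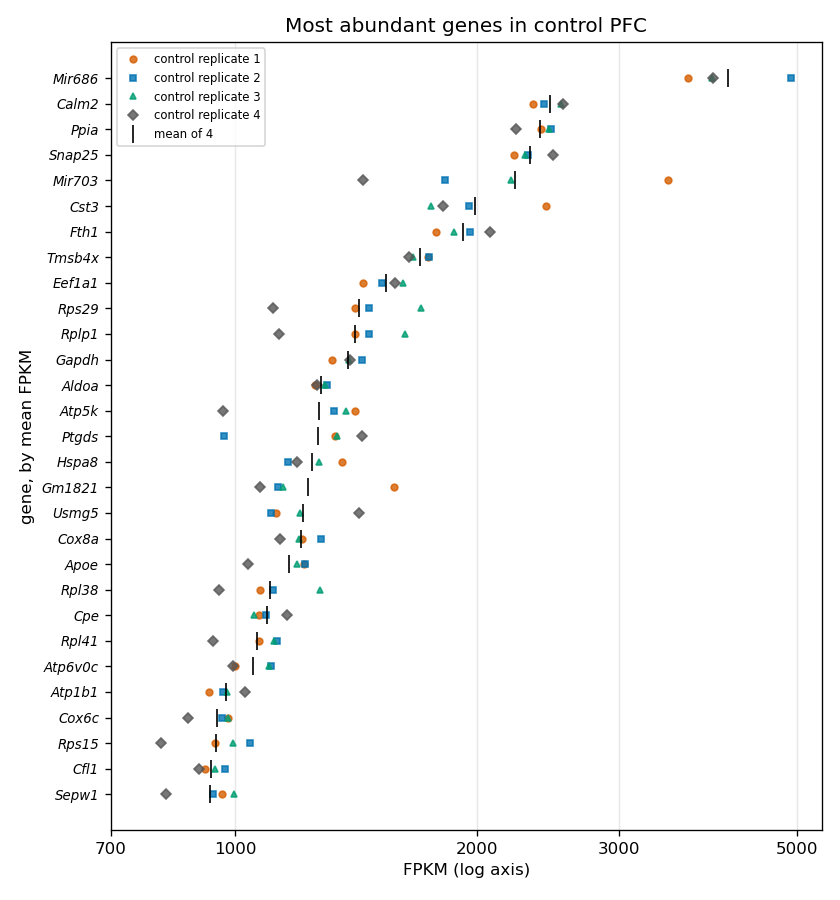
Genes among the 30 with the highest mean FPKM in control PFC (29 drawn), from highest to lowest, with FPKM on a log axis. Each symbol is 1 of the 4 control libraries and the vertical tick is their mean. Mir703 spans the widest range, from 1444 to 3458 FPKM, while most genes keep the 4 libraries close together.

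The abundant genes encoded short proteins. Of the 100 most abundant, 93 had a coding sequence in the annotation, with a median of 180 residues (quartiles 114 and 373), against a median of 467 residues over all expressed genes with one. Proteins of under 200 residues made up 57.0% of these 93 genes and 12.6% of the expressed genes with a coding sequence. Their median transcript was 1180 bases long, against 3023 bases. FPKM divides by transcript length, so this property and the unit cannot be told apart from these values alone. Tmsb4x encodes 50 residues, Rpl41 46 and Rps29 56.

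The highest value of the whole table belonged to a microRNA gene. Mir686 stood at 3664, 4908, 3918 and 3931 FPKM, with replicate 2 highest. Mir703, the second microRNA gene among the 30, stood at 3458, 1823, 2203 and 1444 FPKM and was the only 1 of the 30 in the variable class. The libraries were made from polyadenylated RNA, in which mature microRNAs are not selected, and both genes are only 109 bases long in the annotation. The hairpins are shown because their position bears on these values. Sequences are from RefSeq on GRCm38.p6, 5′ to 3′, with the seed (bases 2 to 8 of each mature microRNA) in capitals. The Mir686 hairpin is at chr14:54616677-54616785 on the minus strand, inside a coding exon of Psmb5, a proteasome subunit gene on the same strand. The Mir703 hairpin is at chr5:98475556-98475664 on the minus strand, in an intron of Cfap299, which is on the other strand. The Mir719 hairpin is at chr14:60228806-60228915 on the minus strand, in a coding exon of Nupl1, a nucleoporin gene on the same strand. The Mirlet7d hairpin is at chr13:48536012-48536114 on the minus strand, in an exon of the non-coding gene 6720427I07Rik on the same strand.
Mir686: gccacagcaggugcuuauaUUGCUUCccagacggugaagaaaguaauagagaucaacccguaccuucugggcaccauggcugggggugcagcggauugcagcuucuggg
Mir703: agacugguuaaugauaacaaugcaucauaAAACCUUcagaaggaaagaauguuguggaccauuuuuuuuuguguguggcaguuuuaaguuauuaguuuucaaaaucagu
Mir719: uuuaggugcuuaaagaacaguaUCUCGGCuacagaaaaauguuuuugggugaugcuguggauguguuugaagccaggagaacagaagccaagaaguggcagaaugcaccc
Mirlet7d: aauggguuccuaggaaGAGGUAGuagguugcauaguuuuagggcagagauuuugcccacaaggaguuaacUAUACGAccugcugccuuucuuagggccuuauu

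The genes that hold these hairpins behaved otherwise. Psmb5 stood at 118, 128, 117 and 112 FPKM, so Mir686 had 34.5-fold its mean level. Nupl1 stood at 23, 20.6, 20.8 and 23.9 FPKM, while Mir719 stood at 54.5, 642, 690 and 1364 FPKM. How fragments of the host transcript were divided between a hairpin and its host was not tested. The same holds for Gm1821, at 1575, 1130, 1146 and 1074 FPKM, which the deposited table places at the locus of the polyubiquitin gene Ubb. Ubb itself stood at 355, 567, 552 and 561 FPKM. Replicate 1 was highest for Gm1821 and lowest for Ubb, and their sum had an SD of 0.10 on the log2 scale, against 0.25 and 0.33 for the 2 genes.

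Markers of cortical excitatory neurons and of neurons in general were high. In 22 lists of marker genes, the pan-neuronal list had the highest median, 292 FPKM over 7 genes, followed by astrocytes with 61.2 FPKM over 10 and excitatory neurons with 57.9 FPKM over 8. Slc17a7, the vesicular glutamate transporter of cortical projection neurons, stood at 472, 496, 466 and 420 FPKM. Tbr1, a transcription factor of corticothalamic neurons, had 42.6 FPKM ± 1.98, and Rbfox3, which encodes the neuronal nuclear antigen NeuN, had 89.3 FPKM ± 2.56 (SD, n = 4). Of the 8 excitatory and 7 pan-neuronal genes, 0 were in the variable class, beside 5% of the expressed genes. The median SDs of the 2 lists were 0.10 and 0.069, against 0.11 over all expressed genes. Markers of all layers were present. The upper-layer genes Rasgrf2 and Cux2 had 36.8 FPKM ± 2.48 and 13.3 FPKM ± 1.45, the layer 5 genes Etv1 and Fezf2 had 23.7 FPKM ± 2.24 and 14.9 FPKM ± 1.32, and the layer 6 gene Tle4 had 15.5 FPKM ± 2.64. Of 8 upper-layer genes Scnn1a was under the minimum, at 0.402 FPKM. Scnn1a and Rorb, with 4.61 FPKM, mark layer 4, which the mouse PFC lacks or holds thinly. In the layer 6 list Foxp2 (5.45, 2.97, 3.10 and 3.62 FPKM) and Cplx3 (8.15, 8.07, 4.51 and 6.61 FPKM) were in the variable class. Foxp2 was highest in replicate 1 and is also made by striatal neurons.

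Interneuron genes covered a wide range of levels. Among the neuropeptides and calcium-binding proteins that define interneuron classes, cholecystokinin (Cck) stood at 625, 654, 680 and 562 FPKM, although it is made by projection neurons as well. Somatostatin (Sst) stood at 337, 447, 302 and 312 FPKM, with replicate 2 highest, and neuropeptide Y (Npy) at 222, 318, 262 and 204 FPKM, again with replicate 2 highest. Parvalbumin (Pvalb), the calcium buffer of fast-spiking interneurons, stood at 68.2, 61.2, 63.1 and 66.6 FPKM, and Vip at 47.4, 63.4, 62.3 and 60.4 FPKM. Sst exceeded Pvalb 4.68- to 7.31-fold by library. Pvalb and Vip changed places, since Pvalb was above Vip in 3 of 4 libraries. The lowest of the list was Htr3a, at 3.86 FPKM. Of the genes of GABA synthesis and transport, Gad2 had 52.4 FPKM ± 4.79 and Slc32a1 36.1 FPKM ± 3.47 (SD, n = 4). The ratio of Slc17a7 to Slc32a1 was 11.7 to 14.1. Gad1, at 157, 175, 244 and 246 FPKM, was in the variable class, and the ratio of Slc17a7 to Gad1 fell between 1.71 and 3.0. In all, 3 of 8 inhibitory genes (Gad1, Dlx1 and Dlx6as1) were in the variable class. So were 4 of 12 interneuron genes (Calb2, Reln, Tac1 and A930038C07Rik, now Ndnf), beside 5% of the expressed genes.

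**Figure D2:**
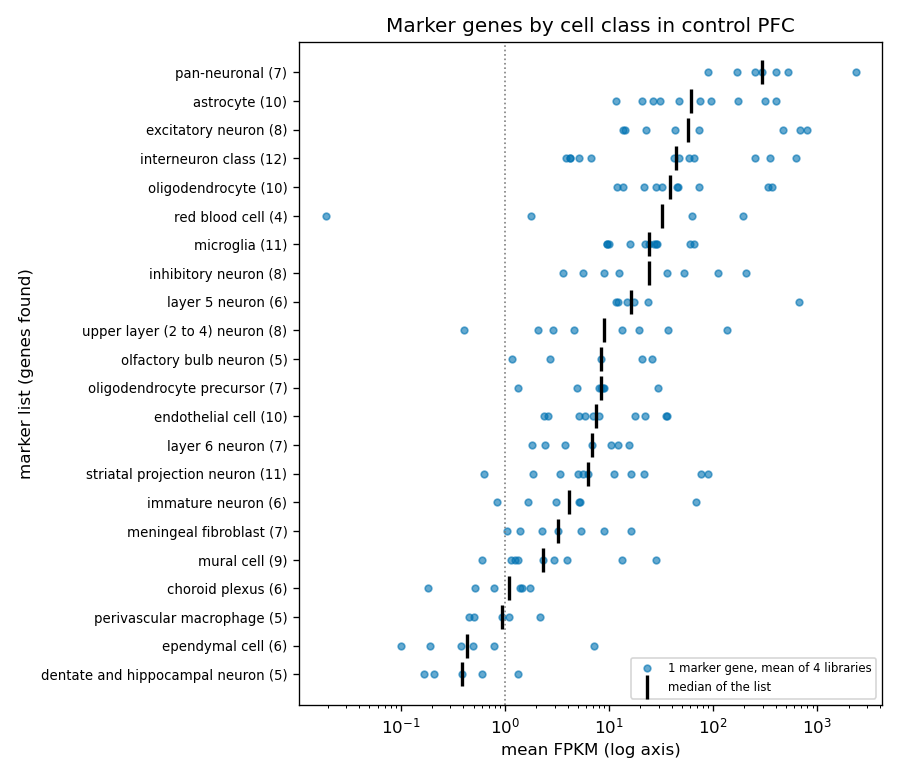
Mean FPKM of each marker gene in control PFC by cell class, on a log axis, with the number of genes found in brackets. Each point is the mean of 4 libraries for 1 gene, the thick tick is the list's median, and the dotted line is 1 FPKM. Pan-neuronal genes lead with a median of 292 FPKM, and hippocampal and ependymal genes lie mostly under 1 FPKM.

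Glial markers were lower than pan-neuronal ones by the median of their lists, which was 61.2 FPKM for astrocytes, 38.6 FPKM for oligodendrocytes, 24.5 FPKM for microglia and 8.29 FPKM for oligodendrocyte precursors. The glutamate transporters Slc1a2 and Slc1a3, which clear glutamate into astrocytes, had 312 FPKM ± 33.7 and 173 FPKM ± 5.51, the astrocyte aldolase Aldoc 398 FPKM ± 18.8, and the filament protein Gfap 47.3 FPKM ± 1.39 (SD, n = 4). None of the 10 astrocyte genes was in the variable class, which is near the 5% share of all expressed genes. Myelin genes were less even, with a median SD of 0.240 over the oligodendrocyte list against 0.105 over the astrocyte list. Mbp, the myelin basic protein, stood at 316, 343, 281 and 401 FPKM, and Mog, a glycoprotein of the myelin surface, at 18.4, 24.2, 15.7 and 27.8 FPKM. Replicate 4 was highest in both, and all 10 oligodendrocyte genes were lowest in replicate 3, beside 22.4% of all expressed genes. Of the 10, 3 were in the variable class, among them Mog and Ermn. Oligodendrocyte precursor genes were lower, with 9 FPKM ± 1.02 for the growth factor receptor Pdgfra. In the variable class were 0 of 7, near the same 5% share.

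Among 11 microglial genes, the chemokine receptor Cx3cr1 and the growth factor receptor Csf1r had 15.9 FPKM ± 0.989 and 22.1 FPKM ± 0.795 (SD, n = 4). The complement genes were not alike. C1qa stood at 32.4, 29.4, 26.1 and 28.5 FPKM, whereas C1qb stood at 23.8, 20.4, 37.4 and 31 FPKM and C1qc at 19.7, 22.1, 37.2 and 28.9 FPKM. Replicate 3 was lowest for C1qa and highest for the other two, which were the only members of the list in the variable class. Perivascular macrophage genes were at 0.456 to 2.19 FPKM, and the microglial level of Cx3cr1 was 14.4- to 20.3-fold that of Mrc1.

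Vascular and meningeal genes were low but detected. The tight junction gene Cldn5 of endothelial cells had 17.8 FPKM ± 1.74, the pericyte gene Vtn 28.5 FPKM ± 3.01 and the fibroblast collagen gene Col1a2 3.26 FPKM ± 0.484 (SD, n = 4). Beside 5% of the expressed genes, none of the 10 endothelial or 8 expressed mural genes was in the variable class. The meningeal genes Dcn (8.23, 5.97, 7.82 and 13.4 FPKM) and Slc6a13 (6.36, 3.52, 4.59 and 7.09 FPKM) were, with replicate 4 highest and replicate 2 lowest in both. Hemoglobin transcripts, which come from blood left in the tissue or from other cells that make them at low level, followed another order. Beta-s (Hbb-bs), the β-globin gene, stood at 121, 185, 184 and 288 FPKM, and Hba-a1 at 39.8, 64.3, 57.7 and 89.1 FPKM. Replicate 4 was highest and replicate 1 lowest in both. Hba-a2 was listed under 0.02 FPKM at the same locus as Hba-a1, of which it is a near-identical copy, so the α-globin value is uncertain for each copy.

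Genes of regions that border the PFC or of ventricle walls were listed to describe the dissection. Of 5 dentate and hippocampal genes only Prox1 passed the minimum, at 1.33 FPKM, and it also marks interneurons. Of 6 ependymal genes only Rarres2 did, at 7.14 FPKM, while Foxj1, which drives the cilia of these cells, was at 0.790 FPKM. The choroid plexus carrier Ttr stood at 2.56, 1.82, 1.19 and 1.38 FPKM, and the 3 expressed genes of its list of 6 (Ttr, Kcnj13 and Aqp1) were in the variable class. Striatal and olfactory bulb genes were higher and had the largest median SDs of the 22 marker lists, 0.98 and 1.37 on the log2 scale. Of 11 striatal genes, 10 passed the minimum and these 10 were all in the variable class. So were 5 of 5 olfactory bulb genes, beside 5% of the expressed genes. The members of these lists were chosen with earlier results of these data known. Their counts therefore describe the libraries and are no test.

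Striatal projection neurons are GABAergic neurons that carry dopamine receptors and the enzymes of cyclic nucleotide signalling. Drd2, the receptor of the indirect pathway, stood at 9.05, 3.37, 0.773 and 0.354 FPKM. Adora2a, the adenosine receptor of the same neurons, stood at 14.6, 3.88, 0.817 and 0.814 FPKM. Drd1a, the receptor of the direct pathway, stood at 13.1, 6.28, 2.17 and 3.64 FPKM. Replicate 1 was highest and replicate 2 next in all 3. The regulator of G protein signalling Rgs9 stood at 25.3, 11.1, 4.96 and 3.76 FPKM, the phosphodiesterase Pde10a at 32, 14.2, 8.83 and 9.67 FPKM, and the opioid precursor Penk at 145, 67.0, 48.9 and 43.5 FPKM. Gpr6 and Rarb were at 4.53 and 10.7 FPKM in replicate 1 and at 0.356 and 3.10 FPKM in replicate 3. Isl1, a transcription factor of these neurons that cortex lacks, stood at 2.28 and 0.264 FPKM in replicates 1 and 2 and was listed at 0 in the other two. The summed level of the 11 genes was 476, 217, 131 and 125 FPKM. All 11 genes were above their replicate 2 value in replicate 1 and above both replicates 3 and 4 in replicate 2, an order that 9.24% of the expressed genes had. All 11 were highest in replicate 1, beside 26.2% of the expressed genes.

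Olfactory bulb markers had the opposite order. Doc2g, a synaptotagmin-like protein of mitral and tufted cells, stood at 3.06, 10.2, 53.9 and 36.4 FPKM. Cdhr1, a protocadherin of the same cells, stood at 3.67, 12.7, 38.2 and 28.6 FPKM. Th, the enzyme that makes L-DOPA in the periglomerular dopamine neurons, stood at 1.15, 3.47, 17.0 and 11.8 FPKM. Eomes stood at 0.175, 0.697, 5.32 and 4.61 FPKM and Tbx21 at 0.0469, 0.512, 2.69 and 1.47 FPKM, both transcription factors of mitral and tufted cells. Replicate 3 was highest and replicate 1 lowest in every one of the 5. Replicate 3 exceeded replicate 1 by 10.4- to 57.4-fold. The summed level was 8.11, 27.6, 117 and 82.8 FPKM. All 5 had replicate 1 under replicate 2 and replicate 2 under both others, as 8.64% of the expressed genes did, and all 5 were highest in replicate 3, beside 21.1%. The choice of these 2 orders followed from the values themselves, so the counts describe the libraries and are no test.

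**Figure D3:**
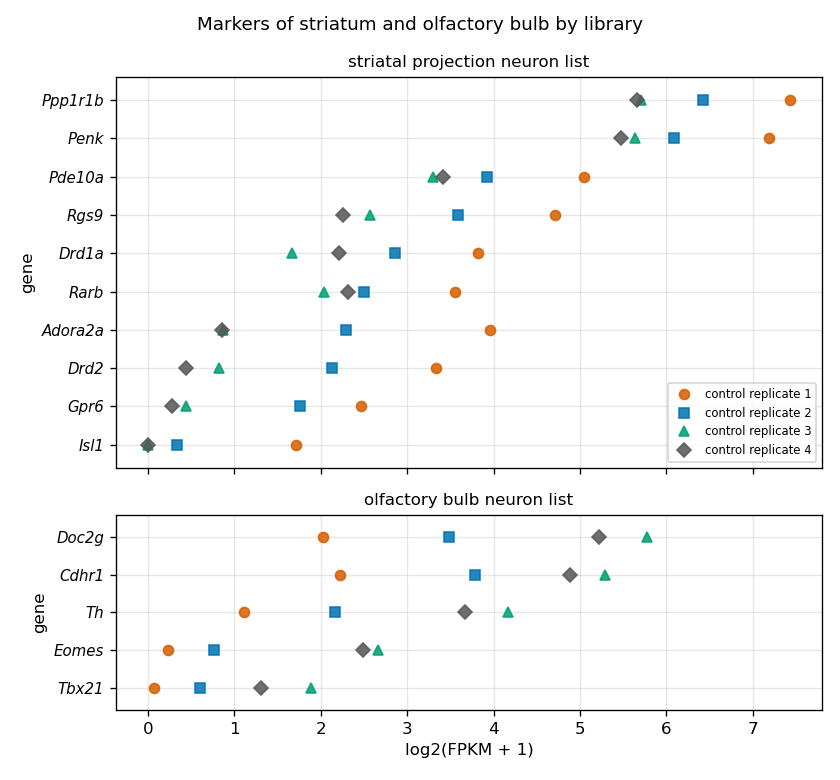
Levels of 10 of the 11 striatal (upper panel) and 5 olfactory bulb (lower panel) marker genes in the 4 control libraries, as log2(FPKM + 1). Each symbol is 1 library. Replicate 1 lies farthest right for every striatal gene drawn and farthest left for every olfactory bulb gene, for example 14.6 against 0.814 FPKM for Adora2a in replicates 1 and 4.

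Genes outside these lists lay along the same orders. Tac1, which encodes the substance P precursor of direct pathway neurons and of some interneurons, stood at 92.6, 36.4, 17.5 and 20.2 FPKM. Lrrc10b stood at 9.30, 4.15, 0.593 and 0.608 FPKM, the neuropeptide gene Nts at 11, 2.18, 0.795 and 1.14 FPKM, and Cartpt, the precursor of another neuropeptide, at 23.5, 7.53, 5.11 and 5.15 FPKM. On the other side, Calb2, the calretinin gene of interneurons and of olfactory bulb granule cells, stood at 10.8, 25.5, 88.9 and 61.7 FPKM, Scgn at 1.05, 2.92, 12 and 7.47 FPKM, and Dlx1, a transcription factor of GABAergic neurons, at 5.62, 9.11, 19.3 and 16 FPKM. Of the 642 genes of the variable class, 98 had the striatal order and 120 the opposite one. Lrrc10b, Nts, Cartpt and Scgn were picked after their values were seen. How far tissue of the 2 regions contributed to Gad1, Dlx1, Calb2 or Tac1 was not tested.

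Promoters are shown for the 2 genes of the striatal and of the olfactory bulb list with the highest SD that have a RefSeq entry. Whether promoter sequence bears on their levels was not tested. Each is the 250 bases before the start, 5′ to 3′ on the gene's strand, on GRCm38.p6. Capitals mark 4 motifs searched on both strands. The TATA box TATAAA was in 13% of 27025 promoters of the same length. The GC box, written GGGCGG, was in 32.9% of them. The CCAAT box, named by its letters, was in 34.5%. The cyclic AMP response element, TGACGTCA, was in 1.62%. Drd2 is at chr9:49340153-49340402 on the plus strand and Rgs9 at chr11:109298182-109298431 on the minus strand. Doc2g is at chr19:4003135-4003384 on the plus strand and Th at chr7:142899996-142900245 on the minus strand.
Drd2: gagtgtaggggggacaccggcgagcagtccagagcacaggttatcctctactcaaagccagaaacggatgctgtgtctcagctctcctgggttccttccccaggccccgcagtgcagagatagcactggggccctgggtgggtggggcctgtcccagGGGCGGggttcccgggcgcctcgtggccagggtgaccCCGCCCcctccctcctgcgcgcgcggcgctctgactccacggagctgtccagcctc
Rgs9: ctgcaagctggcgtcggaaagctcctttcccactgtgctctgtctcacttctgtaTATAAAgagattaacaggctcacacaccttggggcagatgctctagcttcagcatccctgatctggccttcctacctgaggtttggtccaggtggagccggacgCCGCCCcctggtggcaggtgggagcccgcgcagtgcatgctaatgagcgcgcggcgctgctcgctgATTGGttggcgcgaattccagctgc
Doc2g: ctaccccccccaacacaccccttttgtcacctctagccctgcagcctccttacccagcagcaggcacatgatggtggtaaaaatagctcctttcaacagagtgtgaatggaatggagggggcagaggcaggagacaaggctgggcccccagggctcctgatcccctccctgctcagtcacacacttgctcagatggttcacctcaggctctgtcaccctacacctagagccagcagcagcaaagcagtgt
Th: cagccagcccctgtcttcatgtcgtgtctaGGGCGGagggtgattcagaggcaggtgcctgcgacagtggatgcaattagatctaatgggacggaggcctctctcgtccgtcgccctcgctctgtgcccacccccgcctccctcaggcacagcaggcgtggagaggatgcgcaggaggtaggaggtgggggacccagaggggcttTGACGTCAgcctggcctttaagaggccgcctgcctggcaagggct
The GC box GGGCGG was in 3 of these 4 windows. The Doc2g window held none of the 4 motifs and 0 CpG dinucleotides, and the Th window held the cyclic AMP response element. A match is a description of the letters and not a site. A comparison of motifs between the abundant or variable genes and all genes is void, because fewer than 80% of those genes had an entry.

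The spread among the 4 control mice was small for most genes. The median SD of log2(FPKM + 1) over the 12836 expressed genes was 0.11. It was 0.15 for genes with a mean of 1 to 3 FPKM and 0.081 for those of 100 to 300 FPKM. An SD of at least 0.5 was reached by 192 genes and of at least 1 by 65. Very short genes filled the top of the ranking. Of the 43 expressed genes with a transcript under 300 bases, 40 were in the variable class, and 26 of the 30 most variable genes were of this kind, of which 25 were at 0 in at least 1 library. Mirlet7d, the let-7d hairpin gene shown above, stood at 1273 FPKM in replicate 2 and was listed at 0 in the others, which was the highest SD of the table. Mir7-1, in an intron of the RNA-binding protein gene Hnrnpk, stood at 435 FPKM in replicate 4 and at 0 in the others. Snora30, a small nucleolar RNA that guides pseudouridylation, stood at 233, 623, 0 and 267 FPKM. The host Hnrnpk stood at 247, 238, 242 and 244 FPKM. No library was high in all of these genes. What part their length had in these values was not tested.

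**Figure D4:**
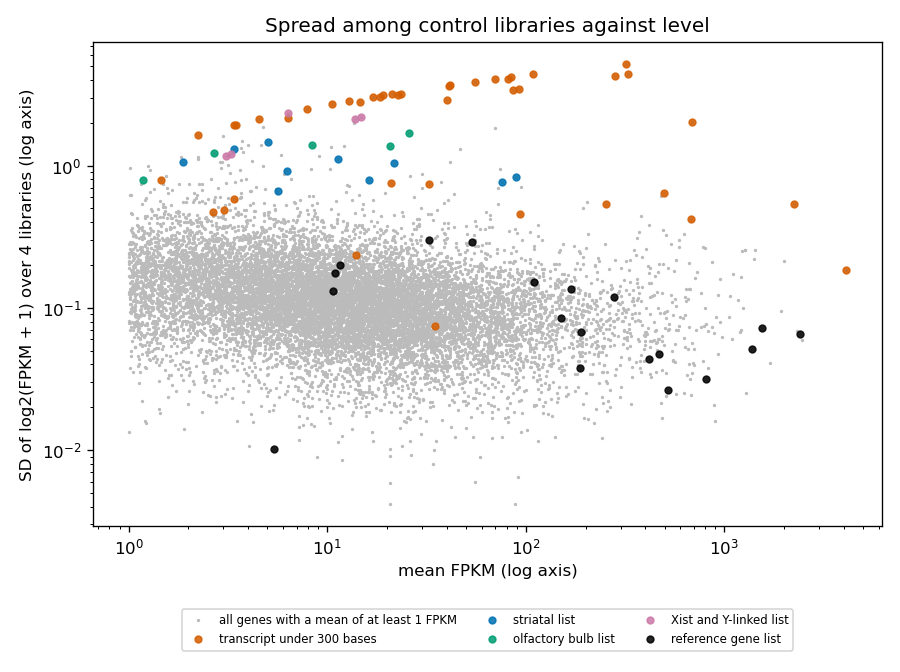
SD of log2(FPKM + 1) over the 4 control libraries against mean FPKM for 12836 expressed genes, both on log axes. Coloured points mark genes with a transcript under 300 bases, the striatal, olfactory bulb and sex-linked lists, and reference genes. Of the 43 short genes 40 are in the variable class, led by Mirlet7d at 5.16, and reference genes lie at or under 0.30.

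Without genes of under 300 bases, 156 genes had an SD of at least 0.5, and sex-linked genes came first. Xist, the RNA that coats the inactive X chromosome in females, stood at 25.2 FPKM in replicate 1 and at no more than 0.00966 FPKM in the others. The Y-linked genes went the other way. Ddx3y, an RNA helicase, stood at 0, 19.6, 17.6 and 21.8 FPKM, and Eif2s3y, a translation initiation factor subunit, at 0.0352, 19.6, 17.4 and 18.0 FPKM. Kdm5d and Uty, of the histone demethylase family, were listed at 0 in replicate 1, with 3.83 to 4.64 FPKM elsewhere. This is the RNA pattern of a female in replicate 1 and of males in the other 3 libraries, although the labels give no sex. Replicate 1 thus differed from the other 3 libraries both in the sex-linked genes and in the striatal ones. With 1 such library the 2 cannot be told apart for the excess of replicate 1. Striatal levels also differed among the 3 libraries with Y-linked RNA. Replicate 2 was above replicates 3 and 4 in all 11 striatal genes, with a sum of 217 against 131 and 125 FPKM. How the sex-linked and striatal differences relate was not tested. Without replicate 1, the 100 most variable genes shared 66 with the original 100 and 162 genes had an SD of at least 0.5.

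Pttg1, which encodes securin, stood at 0.886, 23.4, 2.47 and 28.1 FPKM, so that replicates 2 and 4 were high and 1 and 3 low. Cwc22, a splicing factor, stood at 6.20, 75.3, 80.1 and 119 FPKM. Eif3j stood at 0.0219, 0.202, 3.44 and 15.3 FPKM, rising at each step from replicate 1 to replicate 4. Gm9781 (Eif3j2), listed at the same locus, fell at each of these steps. The Eif3j values alone therefore do not show how far the mice differed at this locus. How reads were divided between Eif3j and Gm9781 was not tested. Amd1, an enzyme of polyamine synthesis, stood at 3.69, 0.0128, 0.0122 and 8.20 FPKM, while Amd2, its near-identical copy, for which the table gives the same locus, had 84.8, 64.2, 72.7 and 76.5 FPKM. Values of genes with such copies are uncertain, since reads can be split between them.

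Genes that respond to experience and hormones within hours varied more than average. All 20 activity-regulated genes were expressed. In the variable class were 8 (Fos, Egr3, Npas4, Junb, Nr4a1, Btg2, Homer1 and Cyr61), beside 5% of all expressed genes. The list's median level was 8.83 FPKM. The class held 10.9% of genes averaging 1 to 3 FPKM and 6.17% of those at 3 to 10 FPKM. Npas4, a neuronal activity-induced transcription factor, stood at 1.76, 7.41, 3.09 and 5.25 FPKM, and Fos at 7.86, 11.6, 7.33 and 11.9 FPKM. Btg2 and Junb had replicates 2 and 4 above 1 and 3 as well, at 7.73 and 6.33 against 3.73 and 4.41 FPKM for Btg2. Egr3 (40, 19.3, 28.2 and 25.8 FPKM) and the synaptic scaffold gene Homer1 (96.2, 44.5, 61.7 and 63.1 FPKM) were instead highest in replicate 1 and lowest in replicate 2. Arc, at 39.2 FPKM ± 4.91, was not in the class. Glucocorticoid-responsive genes were most often highest in replicate 2, in 8 of 11 expressed genes beside 24% of all. Among them, the lipid droplet gene Plin4 stood at 0.529, 3.06, 0.858 and 0.659 FPKM, the transcription factor Zbtb16 at 8.65, 14.4, 7.70 and 7.35 FPKM, and Fkbp5, a co-chaperone of the receptor, at 13.5, 19.8, 13.2 and 13 FPKM. Only Plin4 and Zbtb16 were in the variable class, which is 18.2% of the expressed genes of that list, beside 5% of all. Of 13 clock genes, which cycle with time of day, only Gm129 (Ciart) was in the class. That is 7.69%, near the 5% of all expressed genes, and their median SD was 0.12 against 0.11 over all expressed genes. Interferon and class I genes were highest in replicate 4 in 7 of 8 expressed genes, beside 28.7% of all, and among them Isg15 stood at 1.47, 1.72, 2.62 and 3.02 FPKM. These libraries were again picked out after the values were seen.

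The 20 lowest SDs among the 7003 genes averaging 10 FPKM or more ran from 0.0042 to 0.012 on the log2 scale, with the next gene at 0.012, and their highest and lowest library differed by at most 1.02-fold. Atcay, the neuronal protein caytaxin, stood at 88.8, 88.3, 88.8 and 88.9 FPKM. Atf6, a membrane-bound transcription factor of the unfolded protein response, stood at 20.6, 20.7, 20.5 and 20.6 FPKM. M6pr, the sorting receptor for lysosomal enzymes, had 55.4 FPKM ± 0.232 and Adar, an RNA-editing deaminase, 33.9 FPKM ± 0.194 (SD, n = 4). Others of the 20 were Bri3bp, Fam168b, Tmpo, Agpat3, D030016E14Rik, Vhl, Mapk14, Trim8, Hnmt, Slc35b1, Stim1, Cs, Akap8, Atp5f1 and Psmd1. Their means ran from 11.4 to 243 FPKM with a median of 30.1 FPKM. They include the calcium sensor of the endoplasmic reticulum (Stim1), citrate synthase (Cs), a subunit of ATP synthase (Atp5f1) and 1 of the proteasome (Psmd1). The median protein of the 100 least variable genes had 404 residues, near the 418 of all genes above 10 FPKM. Membership rested on the exact set of mice. When 1 library was left out, 25 to 35 of the 100 least variable genes were still among the lowest 100.

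Of 19 commonly used reference genes, 11 had an SD under the median of all expressed genes. A median splits all genes into equal parts, so this count is near the share of all. Of the 19, 18 averaged 10 FPKM or more, where the median SD was 0.094 against 0.11 over all expressed genes. Gusb, a lysosomal glucuronidase, was the most even, at 5.33, 5.38, 5.32 and 5.42 FPKM, but was under 10 FPKM. Actb stood at 521, 532, 509 and 517 FPKM and Atp5b at 793, 828, 789 and 812 FPKM, and both were in the stable class. Hprt had 187 FPKM ± 4.86 and Gapdh 1382 FPKM ± 48.7, with SDs of 0.038 and 0.051 on the log2 scale. The least even was Tfrc, the transferrin receptor, at 26.2, 37.1, 26.9 and 39.5 FPKM, with replicates 2 and 4 high. None of the 19 was in the variable class, beside 5% of the expressed genes.

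**Figure D5:**
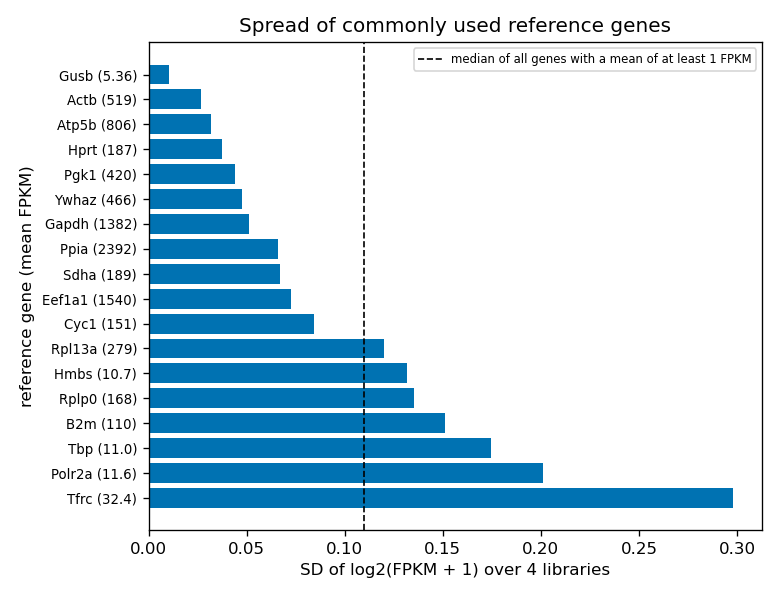
SD of log2(FPKM + 1) over the 4 control libraries for 18 of the 19 reference genes, with the mean FPKM in brackets. The dashed line is the median of all expressed genes, 0.11. Gusb and Actb are lowest, and Tfrc is highest at 0.30.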

How the data were processed

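RNA from the PFC of 4 control mice was sequenced by the authors with stranded, polyadenylated, paired-end libraries. Per the labels and methods, reads of 100 bases were mapped to mm10 with TopHat2 2.0.10 and turned into FPKM with Cufflinks2 and Cuffdiff 2.1.1. The deposited values are log2 values without a stated offset. Range and sums led to taking them for log2(FPKM + 1), which was inverted for the 4 control columns. The 12 columns of the mutant lines were left out. Fragment totals are not given, so depth is unknown. Replicates were numbered in accession order.

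The mean and SD (n = 4) of FPKM and the SD of log2(FPKM + 1) were computed with Python 3.11.15, pandas 2.3.3 and numpy 2.4.6, and plotted with matplotlib 3.10.9. The step was tested on simulated data. No test between groups was run, because 4 libraries of 1 group hold no comparison. Dixon's criterion was applied to the 4 log2 values of each gene to mark single libraries that stand apart. Named genes are the 30 highest by mean, the 30 highest by SD among those averaging 1 FPKM or more, the 20 lowest by SD among those averaging 10 FPKM or more, and the listed genes. The members and lists were chosen with earlier results of these data known. Of 385 list entries 384 were found, 13 of them under another symbol. The transcript with the longest coding part in GENCODE gave each length, and RefSeq gave the sequences. 25 symbols had been turned into dates, and 0 genes of the mitochondrial genome were in the table. The confidence and status columns are empty. Some genes that meet the rule for named genes are not reported here, in the text or the figures, and they remain in the counts.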

Additional observations from a re-analysis of the deposited data

Results flagged for a closer look

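Of 172 named genes, 20 had 1 control library far from the other 3 by Dixon's 95% criterion on the gap over the range. The same criterion marked 748 of the 12836 expressed genes (5.83%), and chance alone gives about 1 in 20. Many of the named genes were chosen by their SD, so their share is a description and cannot be set against these rates. That library was replicate 1 in 9 genes, replicate 2 in 4, replicate 3 in 2 and replicate 4 in 5.

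In replicate 1, Xist was high at 25.2 FPKM, and Ddx3y, Kdm5d and Uty were listed at 0 FPKM with Eif2s3y at 0.0352 FPKM. Replicate 1 was also low in Cwc22 at 6.20 FPKM, in Ubb at 355 FPKM, in Vip at 47.4 FPKM and in the layer 5 gene Etv1 at 20.3 FPKM, against 24.6 to 25.1 FPKM in the others.

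Replicate 2 was high in Fkbp5 at 19.8 FPKM, in Cyr61 at 3.19 FPKM and in Mirlet7d at 1273 FPKM, and low in Atcay at 88.3 FPKM. Replicate 3 was high in Slc35b1 at 35.8 FPKM and low in Snora30 at 0 FPKM. Replicate 4 was high in Mir7-1 at 435 FPKM and in the choroid plexus channel gene Kcnj13 at 2.25 FPKM, and low in Apoe at 1036 FPKM, Cox6c at 873 FPKM and Atp5k at 966 FPKM. Atcay and Slc35b1 are among the 20 least variable genes, where such a gap is a small difference in level.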

How the results depend on the processing

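The share of the summed FPKM held by the 100 most abundant genes was 19.03% without genes whose transcript is under 300 bases. The number of genes with an SD of at least 0.5, 192 as reported, was 373 with a pseudocount of 0.1 and 95 among genes averaging 5 FPKM or more, and 162 to 231 when 1 library was left out. Leaving out the short genes, an alternative chosen after seeing the data, gave 156. Of the 100 most variable genes, 57 were shared when genes averaging 5 FPKM or more were ranked, and 66 to 89 when 1 library was left out, with 66 without replicate 1. Of the 100 least variable genes, 25 to 35 were shared when 1 library was left out, with 25 without replicate 4. The 30 most abundant genes shared 28 to 30 with each alternative. The exclusion of mitochondrial-genome genes gave no value, since the table holds none. No paired analysis was possible because only 1 group was described. Where a value moved, the cause was not tested. Unknown depth limits what can be said of low genes.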

Other observations

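The variable class also held 2 of 5 expressed immature neuron genes and 1 of 2 expressed perivascular macrophage genes, beside 5% of all expressed genes. It held 10.9% of genes averaging 1 to 3 FPKM and 6.17% of those at 3 to 10 FPKM. Dcx, a microtubule protein of migrating neurons, stood at 3.25, 4.06, 6.46 and 6.80 FPKM, and Dlx2, a transcription factor of GABAergic neurons, at 2.31, 2.25, 4.26 and 3.52 FPKM. Both were higher in replicates 3 and 4. Pf4, a chemokine of perivascular macrophages, stood at 1.10, 1.77, 4.37 and 1.52 FPKM, with replicate 3 apart. Of 7 heat shock genes only Hspb1, a small chaperone, was in the class, at 4.81, 2.20, 2.68 and 2.83 FPKM, with replicate 1 highest. Of 30 cytoskeletal genes only Mtap1b, a microtubule-associated protein, was, at 91.3, 93.9, 60.3 and 109 FPKM, with replicate 3 lowest. A count of 1 in lists of 7 and 30 genes is near the 5% share.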
